A study of Mus musculus with 12 samples.

Results

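The 49 genes described here build the machinery that copies DNA in S phase. They are the 6 MCM helicase subunits and the loading and activating factors around them (17 genes), the polymerases, sliding clamp, clamp loader and fork proteins (19 genes), the enzymes of nucleotide supply (5 genes), factors that assemble and methylate new chromatin (4 genes) and regulators of entry into S phase (4 genes). The members were listed by name. Each was found by its gene symbol among the 28944 transcript clusters of a mouse Affymetrix Gene ST array, and where a symbol had several clusters the one with the highest mean signal was taken. All 49 were measured, among 23410 clusters with a symbol. RNA came from purified bone-marrow pro-B cells of mice 1 month old, kept in a specific-pathogen-free facility, on 12 arrays. There were 4 arrays each of wild type (WT), of mice lacking 1 copy of Pax5 (Pax5+/-), and of mice lacking 1 copy each of Cd72 and Pax5 (Cd72+/-;Pax5+/-). The loss of 1 Pax5 copy is thus common to both mutant groups, whose cells the labels call preleukemic precursor B cells, although the mice were sampled young and the labels state no leukemia. The series title concerns a chromosome deletion in B-cell leukemia that takes both genes together. Values are log2 signals, so a difference of 1 is a doubling. A member is said to have risen or fallen where its limma p-value, adjusted by Benjamini-Hochberg over all 23410 clusters, was under 0.05.

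Before S phase, the origin recognition complex with Cdc6 and Cdt1 loads the MCM ring onto DNA. At the G1-S boundary cyclin E with its kinase and the E2F transcription factors turn on the genes for replication, and Cdc45 and the GINS complex then convert the loaded ring into a moving helicase. Pro-B cells are a strongly dividing stage of B-cell development, driven by interleukin 7.

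The pro-B label was checked against 12 markers, of which 11 were measured. Igll1 and Vpreb1, the surrogate light chain genes, read 12.49 to 13.33 and 11.95 to 12.79 over the 12 arrays, and Kit, a receptor of early precursors, 10.07 to 11.15. Stage markers differed between the groups. Dntt, the enzyme that adds bases at heavy-chain joins, averaged 10.86 (WT), 10.635 (Pax5+/-) and 8.515 (Cd72+/-;Pax5+/-), and its differences of -2.34 from WT and -2.12 from Pax5+/- in the last group passed (adjusted p = 0.00515 and 0.00809). Cd93, a surface marker of immature B cells, averaged 11.21, 12.48 and 11.63. The Pax5+/- mean was 1.27 above that of WT (adjusted p = 0.00026), and the difference of Cd72+/-;Pax5+/- from Pax5+/- was -0.85 (adjusted p = 0.00451). Il7r, the interleukin 7 receptor, averaged 11.775, 12.53 and 12.22 and passed in no comparison (adjusted p = 0.146 in Pax5+/- against WT). Of the 11 markers 1 fell and 2 rose in Pax5+/- against WT, 1 and 1 in Cd72+/-;Pax5+/- against WT, and 2 and 1 against Pax5+/-. The part of developmental stage in the members' values was not tested. Of 6 markers of small pre-B and mature B cells 5 were measured. Il2ra, a marker of the later pre-B stage, was also high, with means of 11.665 (WT), 11.72 (Pax5+/-) and 11.095 (Cd72+/-;Pax5+/-). It fell in Cd72+/-;Pax5+/- against WT (-0.57) and against Pax5+/- (-0.625). Ms4a1, which marks mature B cells, stayed between 4.83 and 5.1, and Cd2, Cr2 and Fcer2a between 5.27 and 6.09. Pax5 averaged 11.57 (WT), 10.97 (Pax5+/-) and 11.205 (Cd72+/-;Pax5+/-), and Cd72 averaged 8.90, 10.19 and 7.51, so Cd72 was highest in Pax5+/- arrays. The fall of Pax5 passed in Pax5+/- (adjusted p = 0.0051) and not in Cd72+/-;Pax5+/- cells (0.0781). Where the array probes lie relative to the deleted parts was not used here. Xist averaged 11.805 in the Cd72+/-;Pax5+/- group, 5.23 in WT and 5.18 in Pax5+/-, and Uty, a Y-linked gene, 5.025 against 9.33 and 9.37, so the sex of the mice and the Cd72 genotype cannot be told apart in any comparison with that group. Pola1 is the X-linked member, and none lies on Y. No label states that each array stands for its own animal. The p-values therefore rest on array-to-array spread, part of which may be technical.

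In Pax5+/- pro-B cells 8 of the 49 replication genes (16.3%) were lower than in WT and none was higher, while 3.20% of all clusters tested were lower and 4.28% higher. The 8 were Mcm4, Cdc6, Rpa1, Rrm2, Uhrf1, Dnmt1, Ccne1 and E2f2. At an unadjusted limma p under 0.05, 20 members were lower and 1 was higher, against 2018 and 2206 of the 23410 clusters. The median difference of the members was -0.155, against -0.005 over all clusters, and 39 of the 49 values were negative (79.6%, against 51.8% of all clusters). Rrm2 and E2f2 fell 1.88-fold and 1.87-fold, the other 6 by 1.16-fold to 1.35-fold, and no member differed by more than 2-fold. In Cd72+/-;Pax5+/- cells against WT, 1 member fell (2.04%, against 3.66% of all clusters) and 4 rose (8.16%, against 4.12%), with a median of 0.0125, so the members stood close to the background there. Without WT replicate 4 the 8 falls in Pax5+/- cells became 5, and the 4 rises against WT became 2 without Pax5+/- replicate 3, WT replicate 1 or 3, or any Cd72+/-;Pax5+/- array. Against Pax5+/- cells, the Cd72+/-;Pax5+/- cells had 11 members higher (22.4%, against 4.44% of all clusters) and none lower (against 5.35%), with a median of 0.16. In that comparison 20 members were higher and 1 lower at an unadjusted limma p under 0.05, against 2587 and 2602 of the 23410 clusters. The comparisons share arrays, so a low Pax5+/- value lowers the first and raises the last.

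**Figure D1:**
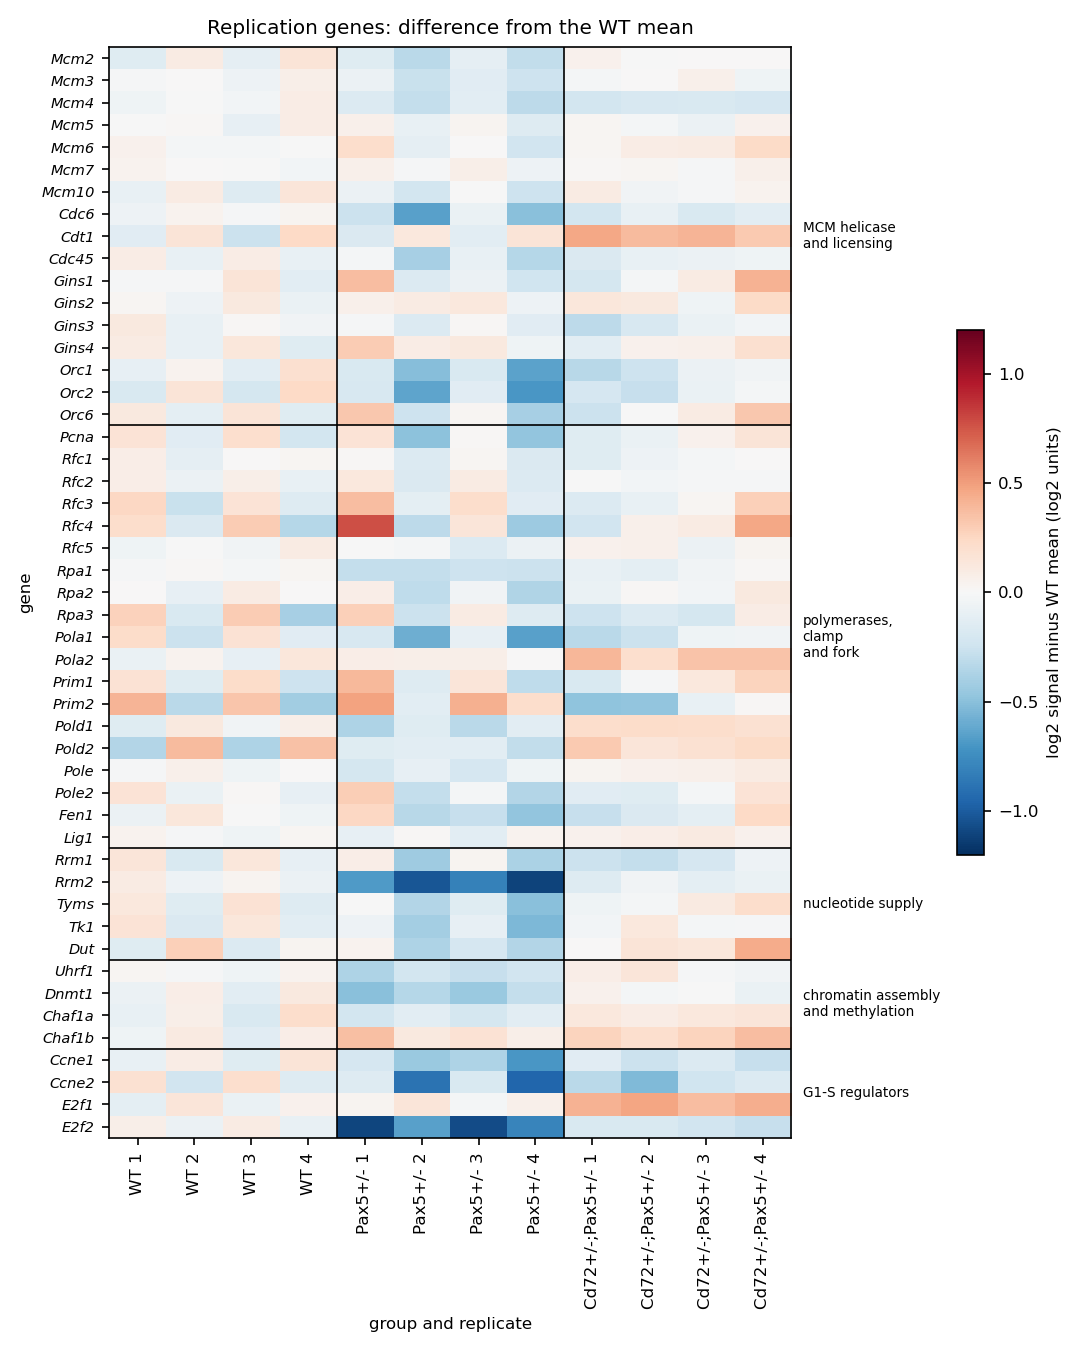
Difference of each replication gene from its WT mean, in log2 units, with genes as rows grouped by role and the 12 arrays as columns grouped by genotype. Blue is lower and red higher than WT. Rrm2 and E2f2 are blue in all 4 Pax5+/- arrays and pale in the Cd72+/-;Pax5+/- arrays, and many rows are darker blue in Pax5+/- replicates 2 and 4 than in 1 and 3.

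The arrays of a group were not evenly spaced. Over all clusters, WT arrays 1 and 3 lay close together (SD of their difference 0.113) and so did 2 and 4 (0.123), while the other WT pairs differed by 0.261 to 0.27. In Pax5+/- the closest pairs were 1 with 3 (0.179) and 2 with 4 (0.13), and the other pairs differed by 0.1915 to 0.2761. Pax5+/- array 3 was nearly as close to 2 (0.1915) and 4 (0.1924) as to 1, so its pairs were less distinct than those of WT. The Cd72+/-;Pax5+/- arrays lay 0.125 to 0.187 apart. In the Pax5+/- group 35 of the 49 members were higher in arrays 1 and 3 than in both 2 and 4, and 9 were lower, with a median difference of 0.28 between the pairs. In WT the counts were 20 and 21. Of all 23410 clusters, 5544 were higher and 5485 lower in arrays 1 and 3 in this way in Pax5+/-. In WT these were 7408 and 5705. The mean of all members relative to WT was -0.0141 and -0.0954 in Pax5+/- arrays 1 and 3, and -0.258 and -0.296 in arrays 2 and 4, while WT arrays ranged from -0.0225 to 0.0267 and Cd72+/-;Pax5+/- arrays from -0.0596 to 0.0951. The median member difference between Pax5+/- and WT was -0.03, with 6 members lower and 1 higher, when replicates 2 and 4 of both groups were left out, and -0.235, with 25 lower and 0 higher, when replicates 1 and 3 were left out. These omissions, chosen after the data were seen, keep 1 of the closest pairs of WT and of Pax5+/- arrays. The cause of the difference in counts was not tested. Shares of all clusters called in the same fits are not given here, so these counts cannot be read as particular to the members. The median SD of a member inside its group was 0.185 for Pax5+/-, 0.118 for WT and 0.0754 for Cd72+/-;Pax5+/- arrays, against 0.0942, 0.0881 and 0.0772 over all clusters. Some stromal transcripts and, in WT, pro-B transcripts moved with the pairs. Of 10 stromal and endothelial markers, 6 were higher and 1 lower in arrays 1 and 3 than in both 2 and 4, in WT and in Pax5+/- alike. All 11 pro-B markers were higher in WT arrays 1 and 3 than in both 2 and 4, with a median difference of 0.83, while in Pax5+/- 5 were higher and 4 lower (median -0.045). Dntt read 11.93 and 11.92 in WT arrays 1 and 3 and 9.76 and 9.82 in arrays 2 and 4, Rag2, a subunit of the V(D)J recombinase, 10.25 and 10.23 against 8.74 and 8.79, and Il7r 12.47 and 12.44 against 11.12 and 11.07. The mean of 10 stromal and endothelial markers ranged from 7.26 to 7.72 over WT, from 6.955 to 7.82 over Pax5+/- and from 6.69 to 6.88 over Cd72+/-;Pax5+/- arrays. Sparc, a matrix protein, read 10.79 and 10.85 in Pax5+/- arrays 1 and 3 and 8.70 and 8.59 in arrays 2 and 4, and Cxcl12 9.08 and 9.25 against 7.37 and 7.17. None of the 10 passed the test between Pax5+/- and WT, Sparc and Cxcl12 fell in Cd72+/-;Pax5+/- against WT, and Cxcl12 fell against Pax5+/-. The endothelial markers Kdr, Emcn and Cdh5 stayed between 5.01 and 6.65 in all arrays, and the stromal marker Lepr between 4.76 and 4.87. Erythroid (4 of 8 measured), granulocyte and monocyte (9) and T and NK cell markers (7 of 8) averaged 6.25 to 6.47, 6.35 to 6.57 and 5.70 to 5.84 per array. Of the monocyte markers Lyz2, for lysozyme, split with the WT pairs, at 8.75 and 8.94 in arrays 1 and 3 and 7.17 and 7.23 in arrays 2 and 4. Its group means were 8.02 (WT), 7.52 (Pax5+/-) and 8.37 (Cd72+/-;Pax5+/-), and it passed in no comparison (adjusted p = 0.557 in Pax5+/- and 0.695 in Cd72+/-;Pax5+/- against WT, and 0.184 between the mutant groups). Values given below within arrays 1 and 3, or within arrays 2 and 4, use those replicates of WT and of Pax5+/- and all 4 Cd72+/-;Pax5+/- arrays. Replicate numbers follow the order of deposit and pair no samples. The part of stromal, pro-B and monocyte transcripts in the members' values was not tested further. In RNA from bulk cells, fewer dividing cells and less RNA per cell cannot be told apart.

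**Figure D2:**
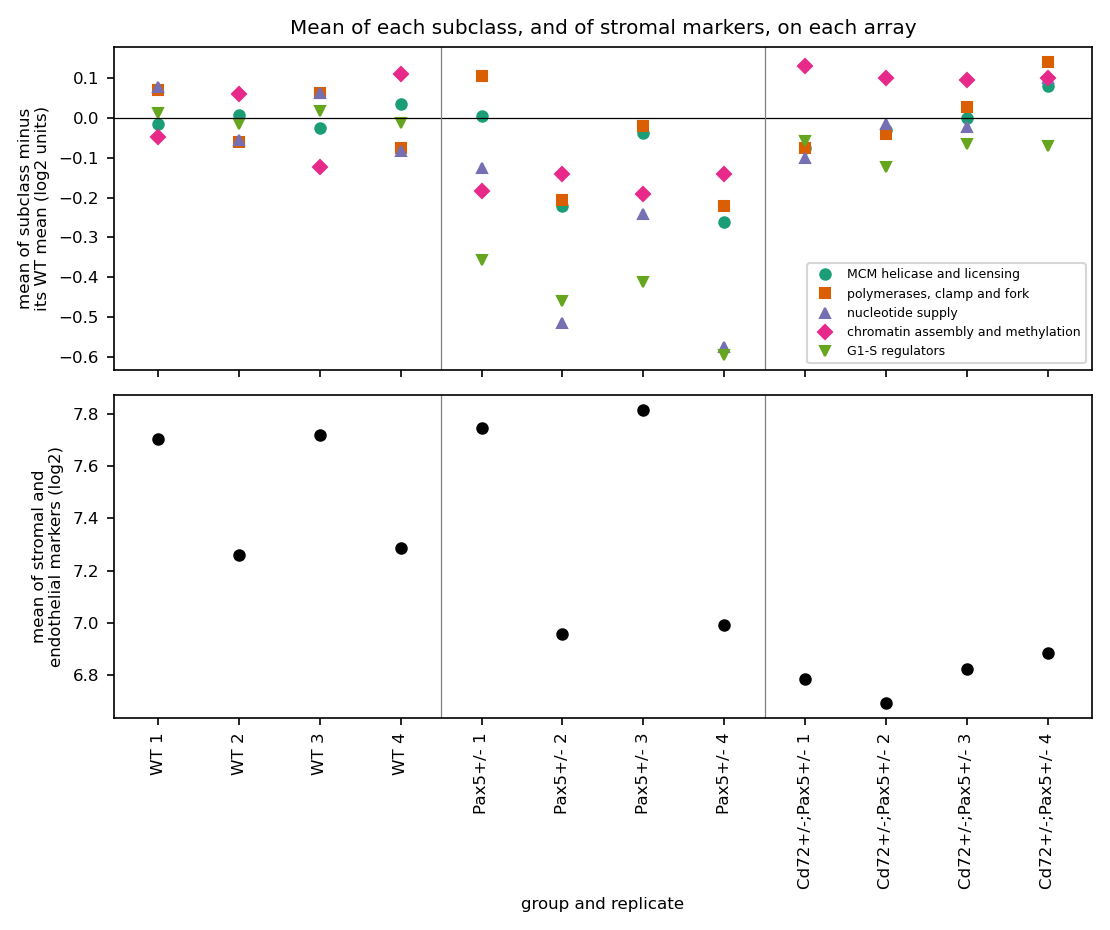
Upper panel, mean of each role class minus its WT mean on each of the 12 arrays, in log2 units. Lower panel, mean log2 signal of 10 stromal and endothelial markers on the same arrays. G1-S regulators lie at -0.356 to -0.596 in the Pax5+/- arrays, and the marker mean is high in replicates 1 and 3 of WT and of Pax5+/-.

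Promoter sequence is shown for the 5 members whose fall in Pax5+/- and whose higher level in Cd72+/-;Pax5+/- than in Pax5+/- both stayed past the threshold when any single array was left out, namely Rpa1, Rrm2, Uhrf1, Dnmt1 and E2f2. The windows are RefSeq's on GRCm38.p6, from 250 bases before to 50 bases after a listed start, on the gene's own strand. Of the 51 windows of the members, 26 had their start at the gene's upstream end in the RefSeq gene table and 25 at another listed start. Where a gene had several listed starts, the window with an E2F match is given. Capitals mark E2F octamers and CCAAT boxes on either strand. The window of Rrm2 is chr12:24708004-24708303 on the plus strand, that of E2f2 chr4:136172024-136172323 (plus), that of Uhrf1 chr17:56304063-56304362 (plus), that of Dnmt1 chr9:20952574-20952873 (minus) and that of Rpa1 chr11:75348334-75348633 (minus). The starts of Rrm2 and E2f2 were at the gene's upstream end, while those of Rpa1, Uhrf1 and Dnmt1 lay 71, 976 and 7265 bases downstream of it.
Rrm2: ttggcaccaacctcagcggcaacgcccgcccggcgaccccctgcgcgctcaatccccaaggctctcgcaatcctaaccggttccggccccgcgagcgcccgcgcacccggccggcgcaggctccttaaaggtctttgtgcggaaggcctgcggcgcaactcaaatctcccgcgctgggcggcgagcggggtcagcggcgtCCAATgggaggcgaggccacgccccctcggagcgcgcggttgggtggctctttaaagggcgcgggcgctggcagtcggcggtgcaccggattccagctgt
E2f2: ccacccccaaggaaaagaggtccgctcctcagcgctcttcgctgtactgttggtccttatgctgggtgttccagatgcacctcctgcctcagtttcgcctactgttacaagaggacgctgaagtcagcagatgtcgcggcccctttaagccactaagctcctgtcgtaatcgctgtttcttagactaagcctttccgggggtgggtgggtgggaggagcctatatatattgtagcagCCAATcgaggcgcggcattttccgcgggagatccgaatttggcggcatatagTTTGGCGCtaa
Uhrf1: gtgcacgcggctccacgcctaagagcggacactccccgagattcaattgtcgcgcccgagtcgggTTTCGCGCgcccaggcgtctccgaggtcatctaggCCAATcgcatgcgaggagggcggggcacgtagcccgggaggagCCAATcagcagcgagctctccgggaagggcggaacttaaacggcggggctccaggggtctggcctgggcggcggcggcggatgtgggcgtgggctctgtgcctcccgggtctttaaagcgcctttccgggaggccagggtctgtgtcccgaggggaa
Dnmt1: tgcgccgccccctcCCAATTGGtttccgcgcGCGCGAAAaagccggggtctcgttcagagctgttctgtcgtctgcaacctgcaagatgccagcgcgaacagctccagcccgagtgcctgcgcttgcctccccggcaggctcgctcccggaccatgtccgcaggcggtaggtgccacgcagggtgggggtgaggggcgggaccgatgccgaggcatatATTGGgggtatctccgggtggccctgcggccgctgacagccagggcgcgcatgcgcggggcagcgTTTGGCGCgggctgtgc
Rpa1: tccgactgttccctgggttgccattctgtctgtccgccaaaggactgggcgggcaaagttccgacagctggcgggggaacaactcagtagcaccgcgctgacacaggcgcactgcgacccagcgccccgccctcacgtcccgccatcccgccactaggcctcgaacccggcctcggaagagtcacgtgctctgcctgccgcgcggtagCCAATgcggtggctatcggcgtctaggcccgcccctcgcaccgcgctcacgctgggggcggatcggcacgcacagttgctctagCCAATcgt
The E2F octamers searched were TTTCCCGC, TTTCGCGC, TTTGCCGC and TTTGGCGC. E2f2 held 1 match that began at +40 of its start, Uhrf1 1 at -185 and Dnmt1 2 at -219 and +34. The windows at the other listed starts of these genes, among them those at the upstream ends of Uhrf1 and Dnmt1, held no E2F octamer. The window of Rrm2 held none of these letters but a CCAAT box at -50, and that of Rpa1 none but CCAAT at -42 and +43.

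Of the 49 members, 41 matched the promoter table, with 51 windows, and Ccne2, Gins1, Gins2, Gins4, Mcm4, Pole, Prim2 and Rfc2 did not. An E2F octamer stood in 16 of the 51 windows (31.4%), each of a different gene, against 2.26% of all 32851 windows of this length. The 16 genes were Cdc6, Cdt1, Dnmt1, E2f2, Gins3, Lig1, Mcm3, Mcm5, Mcm6, Mcm7, Orc1, Pola1, Pold1, Pole2, Rfc3 and Uhrf1. The share was 26.9% of the 26 windows at the gene's upstream end and 36% of the 25 others. By role, matches were most frequent among licensing genes, with 8 of 15 windows, and absent from the 5 windows of nucleotide supply. Polymerase and fork genes had 5 of 20, chromatin genes 2 of 7 and G1-S regulators 1 of 4. CCAAT, a motif searched after the values were known, stood in 60.8% of member windows and 37.4% of all windows. The letters TTTGAA of the CHR element, which is found at late cell-cycle genes, stood in 13.7% and 17.9%. Of the 8 genes that fell in Pax5+/- cells, 7 had a window and 4 of these held an E2F octamer (Cdc6, Dnmt1, E2f2 and Uhrf1). Mcm5 and Mcm7 hold the octamer too, and their differences from WT in Pax5+/- cells were -0.04 and 0.015, so the octamer stood in genes that fell and in genes near no difference. A match is a description of letters and not of binding.

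Among the 17 helicase and licensing genes, Mcm4 and Cdc6 fell in Pax5+/- cells (11.8%, against 3.20% of all clusters). Mcm4 fell and Cdt1 rose in Cd72+/-;Pax5+/- cells against WT (5.88% each, against 3.66% and 4.12%). Cdt1 alone rose there against Pax5+/- cells (5.88%, against 4.44%). The class counts in Cd72+/-;Pax5+/- cells were thus near the background. The medians of the 17 were -0.075, 0.015 and 0.115. Mcm4, a subunit of the MCM ring, read 10.60, 10.65, 10.62 and 10.74 in WT replicates 1 to 4, 10.49, 10.37, 10.53 and 10.34 in Pax5+/-, and 10.43, 10.46, 10.47 and 10.45 in Cd72+/-;Pax5+/-. Every array of either mutant group lay below every WT array, and the mutant groups overlapped. Mcm4 was the member that differed from WT in both mutant groups in the same direction, by -0.22 (SE 0.0519, adjusted p = 0.0199) and -0.20 (SE 0.0519, adjusted p = 0.0336), a 1.16-fold and a 1.15-fold fall. The Pax5+/- difference was -0.10 within arrays 1 and 3 and -0.34 within arrays 2 and 4. The first call ended without Pax5+/- replicate 2 (adjusted p = 0.0676), without Pax5+/- replicate 4 (0.0644) or without WT replicate 4 (0.067). The second ended for 7 of the 12 arrays left out, WT replicates 2, 3 and 4 and each Cd72+/-;Pax5+/- array, with adjusted p from 0.0538 to 0.0924.

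Cdc6, which brings the helicase to origins with Cdt1, read 8.78, 8.88, 8.82 and 8.87 in WT, 8.58, 8.19, 8.76 and 8.34 in Pax5+/-, and 8.62, 8.75, 8.65 and 8.71 in Cd72+/-;Pax5+/- replicates 1 to 4. It was lowest in Pax5+/- replicates 2 and 4, and all mutant arrays lay below all WT arrays. The Pax5+/- difference was -0.37 (SE 0.0982, adjusted p = 0.0378), but it was -0.13 within arrays 1 and 3 and -0.61 within arrays 2 and 4. The call rested on nearly every array: leaving out any 1 of 10 arrays, all but Pax5+/- replicates 1 and 3, ended it, with adjusted p between 0.0523 and 0.114. Cdt1, the partner of Cdc6 that is destroyed once S phase begins, took another course. Its values were 9.12, 9.41, 9.00 and 9.49 in WT, 9.08, 9.38, 9.13 and 9.41 in Pax5+/-, and 9.72, 9.63, 9.66 and 9.57 in Cd72+/-;Pax5+/- replicates. The WT and Pax5+/- arrays overlapped, and each Cd72+/-;Pax5+/- array lay above both. Cdt1 rose 1.31-fold against WT (0.39, SE 0.108, adjusted p = 0.0468) and against Pax5+/- (0.395, SE 0.108, adjusted p = 0.0371). The size depended on the pair: against WT it was 0.585 over arrays 1 and 3 and 0.195 over arrays 2 and 4, and against Pax5+/- 0.54 and 0.25. These calls ended for 8 and 6 of the 12 arrays left out, with adjusted p of up to 0.126 and 0.108, each Cd72+/-;Pax5+/- array among them, WT replicates 1 and 3 and Pax5+/- replicates 2 and 3 in the first, and Pax5+/- replicates 1 and 3 in the second.

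The other 14 licensing genes passed in no comparison. Orc1 and Orc2, subunits of the origin recognition complex, had the largest differences among them, -0.38 (adjusted p = 0.0685) and -0.415 (0.113) in Pax5+/- against WT. Orc1 did not overlap, with 7.15 to 7.61 in Pax5+/- and 7.66 to 7.98 in WT arrays, and neither did Mcm3 (difference -0.18). Mcm2 was 0.23 higher in Cd72+/-;Pax5+/- than in Pax5+/- arrays (adjusted p = 0.0671), and its arrays did not overlap. Cdc45, the helicase activator, was at -0.21 in Pax5+/- against WT (adjusted p = 0.177). Mcm5 and Mcm7, also subunits of the ring, were at -0.04 and 0.015 in Pax5+/- against WT.

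Of the 19 polymerase, clamp and fork genes, Rpa1 alone fell in Pax5+/- cells (5.26%, against 3.20% of all clusters). Pola2 alone rose in Cd72+/-;Pax5+/- cells against WT (5.26%, against 4.12%), so both counts were near the background. Rpa1, Pola2, Pold1 and Pole were higher in Cd72+/-;Pax5+/- than in Pax5+/- cells (21.1%, against 4.44%). Rpa1, the large subunit of the protein that coats single-stranded DNA, read 9.94, 9.97, 9.93 and 9.98 in WT, 9.67, 9.67, 9.71 and 9.70 in Pax5+/-, and 9.87, 9.84, 9.91 and 9.97 in Cd72+/-;Pax5+/- replicates. The Pax5+/- arrays were below all the others. The difference from WT was -0.27 (SE 0.0408, 1.2-fold, adjusted p = 0.001), and was -0.245 within arrays 1 and 3 and -0.29 within arrays 2 and 4. Against Pax5+/-, the Cd72+/-;Pax5+/- value was 0.21 higher (SE 0.0408, adjusted p = 0.00499). Rpa2 and Rpa3, the other subunits of the complex, passed in no comparison.

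Pola2, the accessory subunit of the priming polymerase alpha, read 9.94, 10.06, 9.92 and 10.16 in WT, 10.10, 10.09, 10.09 and 10.02 in Pax5+/-, and 10.42, 10.22, 10.36 and 10.36 in Cd72+/-;Pax5+/- replicates. All Cd72+/-;Pax5+/- arrays lay above all others. Pola2 rose by 0.32 against WT (SE 0.0611, 1.25-fold, adjusted p = 0.00555) and by 0.265 against Pax5+/- (SE 0.0611, adjusted p = 0.0147), the latter not passing without Cd72+/-;Pax5+/- replicate 1 (adjusted p = 0.0509). It was 0.41 above WT arrays 1 and 3 and 0.23 above WT arrays 2 and 4. Pold1, the catalytic subunit of the lagging-strand polymerase delta, read 10.29, 10.55, 10.39 and 10.51 in WT, 10.06, 10.29, 10.11 and 10.31 in Pax5+/-, and 10.65, 10.66, 10.65 and 10.62 in Cd72+/-;Pax5+/- replicates. The Cd72+/-;Pax5+/- arrays were the highest, while WT and Pax5+/- overlapped. Pold1 was 0.45 higher in Cd72+/-;Pax5+/- than in Pax5+/- cells (SE 0.0696, 1.37-fold, adjusted p = 0.000894), and its differences from WT, 0.21 there and -0.24 in Pax5+/-, had adjusted p of 0.0964 and 0.0558. It was 0.56 above Pax5+/- arrays 1 and 3 and 0.345 above Pax5+/- arrays 2 and 4, and Pole, which follows, 0.265 and 0.135. Pole, the catalytic subunit of the leading-strand polymerase epsilon, read 10.64, 10.72, 10.61 and 10.66 in WT, 10.45, 10.56, 10.46 and 10.61 in Pax5+/-, and 10.69, 10.71, 10.72 and 10.76 in Cd72+/-;Pax5+/- replicates. Both mutant groups were apart, and WT overlapped each of them. Pole rose by 0.20 against Pax5+/- (SE 0.0476, adjusted p = 0.0178), which ended without Pax5+/- replicate 3 (0.0585) or Cd72+/-;Pax5+/- replicate 4 (0.0535).

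The other 15 members of this class passed in no comparison. Prim2, a primase subunit, was at -0.51 in Cd72+/-;Pax5+/- against Pax5+/- cells (adjusted p = 0.156), the widest difference in the class and opposite to Pold1. Its WT values split by pair, 9.97 and 9.90 in replicates 1 and 3 and 9.24 and 9.15 in replicates 2 and 4. Pold2, the partner of Pold1, split the other way, at 9.13 and 9.11 against 9.86 and 9.84. It was 0.39 higher in Cd72+/-;Pax5+/- than in Pax5+/- arrays (adjusted p = 0.155), without overlap. Pola1, the catalytic partner of Pola2, was at -0.38 in Pax5+/- against WT (adjusted p = 0.145), and Fen1, the flap endonuclease, at -0.21 (0.523). The clamp Pcna, with 2 clusters, was at -0.20 and -0.19 (adjusted p = 0.576 and 0.597), and the clamp loader subunits Rfc1 to Rfc5 were at -0.08, -0.03, 0.08, 0.04 and -0.065.

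**Figure D3:**
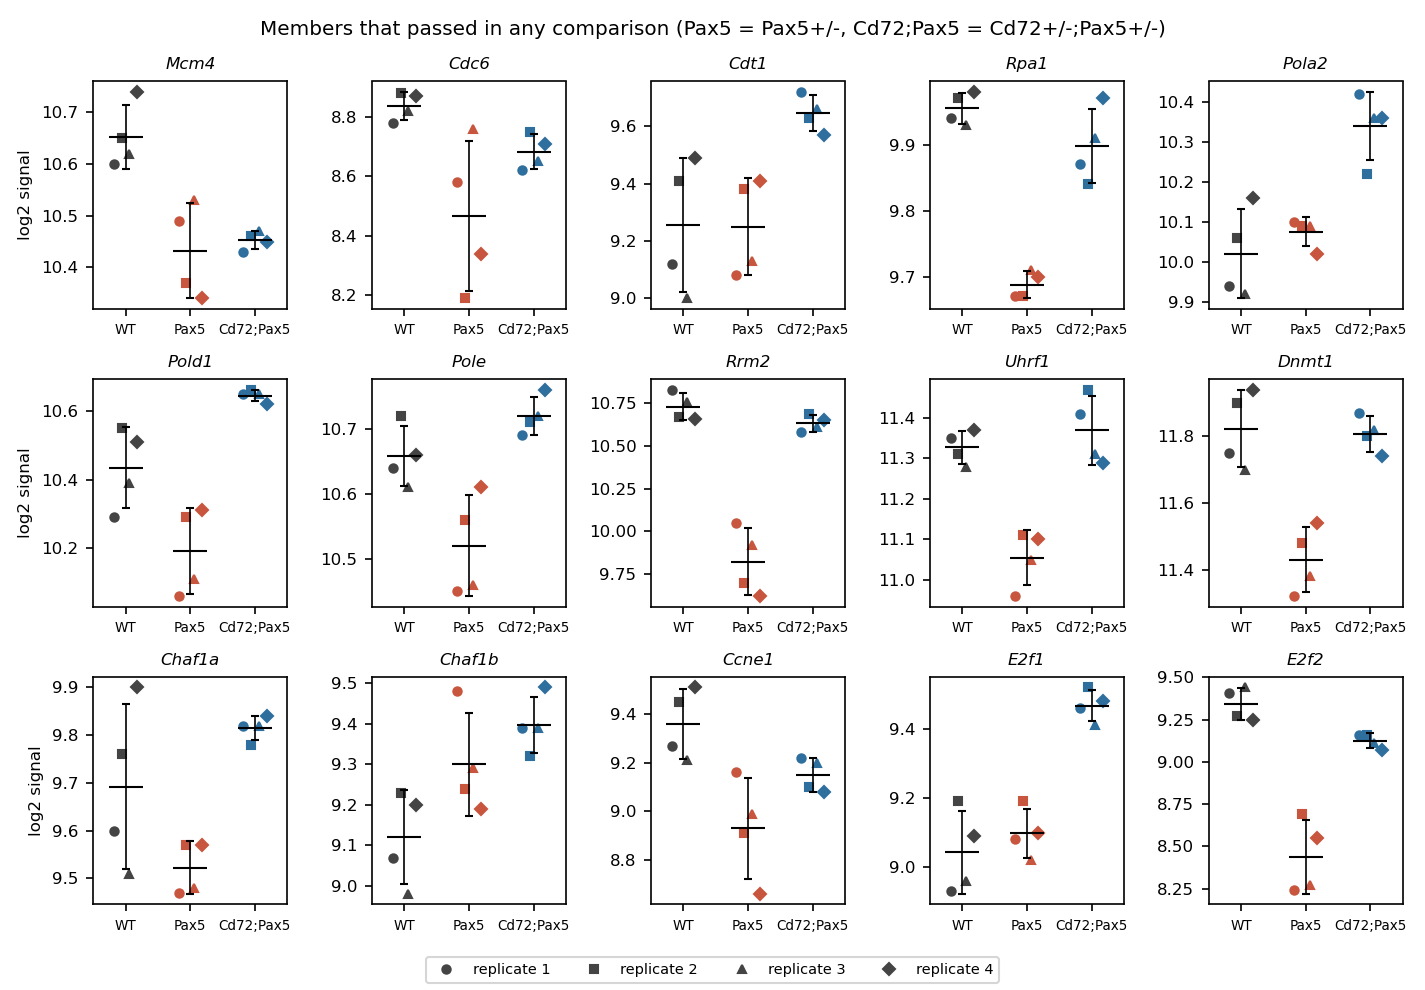
Log2 signal of the 15 members called in any comparison, 1 panel a gene, with a point per array and a line with bars at the group mean ± SD. In Rrm2 and E2f2 the 4 Pax5+/- points lie apart below the others, and in E2f1, Pola2 and Cdt1 the 4 Cd72+/-;Pax5+/- points lie above the others.

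Nucleotide supply held the largest fitted difference of the 49 genes in any comparison. Rrm2, the small subunit of ribonucleotide reductase, which makes deoxynucleotides and is limiting in S phase, read 10.83, 10.67, 10.76 and 10.66 in WT, 10.05, 9.70, 9.92 and 9.62 in Pax5+/-, and 10.58, 10.69, 10.61 and 10.65 in Cd72+/-;Pax5+/- replicates 1 to 4. The highest Pax5+/- array was below the lowest array of the other groups, and WT and Cd72+/-;Pax5+/- arrays overlapped. Rrm2 fell by 0.91 in Pax5+/- cells (9.82 ± 0.198 against 10.73 ± 0.0804, SD, n = 4 arrays; SE 0.0837, 1.88-fold, adjusted p = 1.49e-05). It was 0.81 higher in Cd72+/-;Pax5+/- (10.63 ± 0.0479) than in Pax5+/- cells (SE 0.0837, 1.75-fold, adjusted p = 3.18e-05), and its difference from WT there was -0.10 (SE 0.0837, adjusted p = 0.616). The exact two-sided permutation p of both calls was 0.0286, the smallest that 4 arrays against 4 can give. The Pax5+/- difference was -0.81 within arrays 1 and 3 and -1.005 within arrays 2 and 4. Rrm2 was the member whose calls passed in all 24 alternative settings, in both comparisons.

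Rrm1, the large subunit of the same enzyme, did not follow Rrm2: its differences were -0.17, -0.20 and -0.03 in the 3 comparisons (adjusted p = 0.538, 0.408 and 0.928). Dut, which removes dUTP, and Tyms, which makes thymidylate, were at -0.22 and -0.25 in Pax5+/- against WT (adjusted p = 0.407 and 0.26) and 0.40 and 0.31 higher in Cd72+/-;Pax5+/- than in Pax5+/- cells (0.0608 and 0.113). Tk1, thymidine kinase, had 2 clusters that differed in their calls. The brighter one was at -0.275 in Pax5+/- against WT (adjusted p = 0.194) and 0.29 in Cd72+/-;Pax5+/- against Pax5+/- (0.137), the other at -0.22 (SE 0.0531, adjusted p = 0.0227) and 0.31 (SE 0.0531, adjusted p = 0.00215). The medians of the 5 genes were -0.2525, 0.0125 and 0.3125.

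Of the 4 chromatin genes, Uhrf1 and Dnmt1, which act together to copy DNA methylation onto the new strand, fell in Pax5+/- cells. Uhrf1 read 11.35, 11.31, 11.28 and 11.37 in WT, 10.96, 11.11, 11.05 and 11.10 in Pax5+/-, and 11.41, 11.47, 11.31 and 11.29 in Cd72+/-;Pax5+/- replicates. The Pax5+/- arrays were the lowest 4. Uhrf1 fell by 0.27 (SE 0.053, 1.21-fold, adjusted p = 0.00584; 0.0796 after quantile normalization) and was 0.315 higher in Cd72+/-;Pax5+/- than in Pax5+/- cells (SE 0.053, adjusted p = 0.00178). Dnmt1, the maintenance methyltransferase, read 11.75, 11.90, 11.70 and 11.94 in WT, 11.32, 11.48, 11.38 and 11.54 in Pax5+/-, and 11.87, 11.80, 11.82 and 11.74 in Cd72+/-;Pax5+/- replicates. Again Pax5+/- arrays were below all others. Dnmt1 fell by 0.39 (SE 0.0658, 1.31-fold, adjusted p = 0.00208) and was 0.38 higher in Cd72+/-;Pax5+/- than in Pax5+/- cells (SE 0.0658, adjusted p = 0.00231; 0.0509 after quantile normalization). Within arrays 1 and 3 and within arrays 2 and 4 the differences were -0.31 and -0.235 for Uhrf1 and -0.375 and -0.41 for Dnmt1.

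Chaf1a and Chaf1b are subunits of the CAF-1 chaperone, which places histones on new DNA. Chaf1a read 9.60, 9.76, 9.51 and 9.90 in WT, 9.47, 9.57, 9.48 and 9.57 in Pax5+/-, and 9.82, 9.78, 9.82 and 9.84 in Cd72+/-;Pax5+/- replicates. It was higher in every Cd72+/-;Pax5+/- than in every Pax5+/- array, with WT between and overlapping both. The difference of 0.29 (SE 0.0724, 1.22-fold, adjusted p = 0.022) lost its call for 5 of the 12 arrays left out, Pax5+/- replicates 1 and 3 and Cd72+/-;Pax5+/- replicates 1, 3 and 4, with adjusted p from 0.0511 to 0.065. Chaf1b read 9.07, 9.23, 8.98 and 9.20 in WT, 9.48, 9.24, 9.29 and 9.19 in Pax5+/-, and 9.39, 9.32, 9.39 and 9.49 in Cd72+/-;Pax5+/- replicates. Its lowest values were in WT, and only the Cd72+/-;Pax5+/- arrays were clear of them. Chaf1b rose by 0.28 against WT (SE 0.0733, 1.21-fold, adjusted p = 0.037), a call that ended for 7 of the 12 arrays left out, WT replicates 1 and 3, Pax5+/- replicate 3 and each Cd72+/-;Pax5+/- array, with adjusted p from 0.0512 to 0.108. It was 0.37 above WT arrays 1 and 3 and 0.18 above WT arrays 2 and 4. In Pax5+/- cells it was at 0.18 (adjusted p = 0.203), the opposite sign to Dnmt1 and Uhrf1.

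The G1-S regulators had the lowest median in Pax5+/- cells, -0.4875 over 4 genes, and the mean of the 4 was below WT in each Pax5+/- array, by -0.356 to -0.596. E2f2, an activating member of the E2F family, read 9.41, 9.27, 9.44 and 9.25 in WT, 8.24, 8.69, 8.27 and 8.55 in Pax5+/-, and 9.16, 9.16, 9.11 and 9.07 in Cd72+/-;Pax5+/- replicates 1 to 4. The 3 groups did not overlap, with WT highest and Pax5+/- lowest. E2f2 fell by 0.905 in Pax5+/- cells (8.44 ± 0.219 against 9.34 ± 0.0964, SD, n = 4 arrays; SE 0.0915, 1.87-fold, adjusted p = 3.33e-05, exact permutation p = 0.0286). In Cd72+/-;Pax5+/- cells (9.125 ± 0.0436) it was 0.69 higher than in Pax5+/- cells (SE 0.0915, 1.61-fold, adjusted p = 0.000279), and at -0.22 against WT (adjusted p = 0.204). Unlike Rrm2, its difference was larger within arrays 1 and 3 (-1.17) than within arrays 2 and 4 (-0.64).

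E2f1, another activator, did not fall: it read 8.93, 9.19, 8.96 and 9.09 in WT, 9.08, 9.19, 9.02 and 9.10 in Pax5+/-, and 9.46, 9.52, 9.41 and 9.48 in Cd72+/-;Pax5+/- replicates. WT and Pax5+/- arrays overlapped, and all Cd72+/-;Pax5+/- arrays lay above them. E2f1 rose by 0.425 against WT (SE 0.0616, 1.34-fold, adjusted p = 0.000708; 0.52 over WT arrays 1 and 3 and 0.33 over WT arrays 2 and 4) and by 0.37 against Pax5+/- (SE 0.0616, 1.29-fold, adjusted p = 0.00165). Ccne1, which encodes cyclin E1, read 9.27, 9.45, 9.21 and 9.51 in WT, 9.16, 8.91, 8.99 and 8.66 in Pax5+/-, and 9.22, 9.10, 9.20 and 9.08 in Cd72+/-;Pax5+/- replicates. All Pax5+/- arrays were below all WT arrays, and the Cd72+/-;Pax5+/- arrays overlapped both. The fall of 0.43 (SE 0.0976, 1.35-fold, adjusted p = 0.0159) was -0.165 within arrays 1 and 3 and -0.695 within arrays 2 and 4, and its call ended without WT replicate 2 (0.0509) or WT replicate 4 (0.0535). Ccne2, for cyclin E2, was at -0.545 in Pax5+/- against WT, with 9.41, 8.68, 9.38 and 8.62 against 9.75, 9.34, 9.77 and 9.41, and did not pass (SE 0.182, adjusted p = 0.106).

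**Figure D4:**
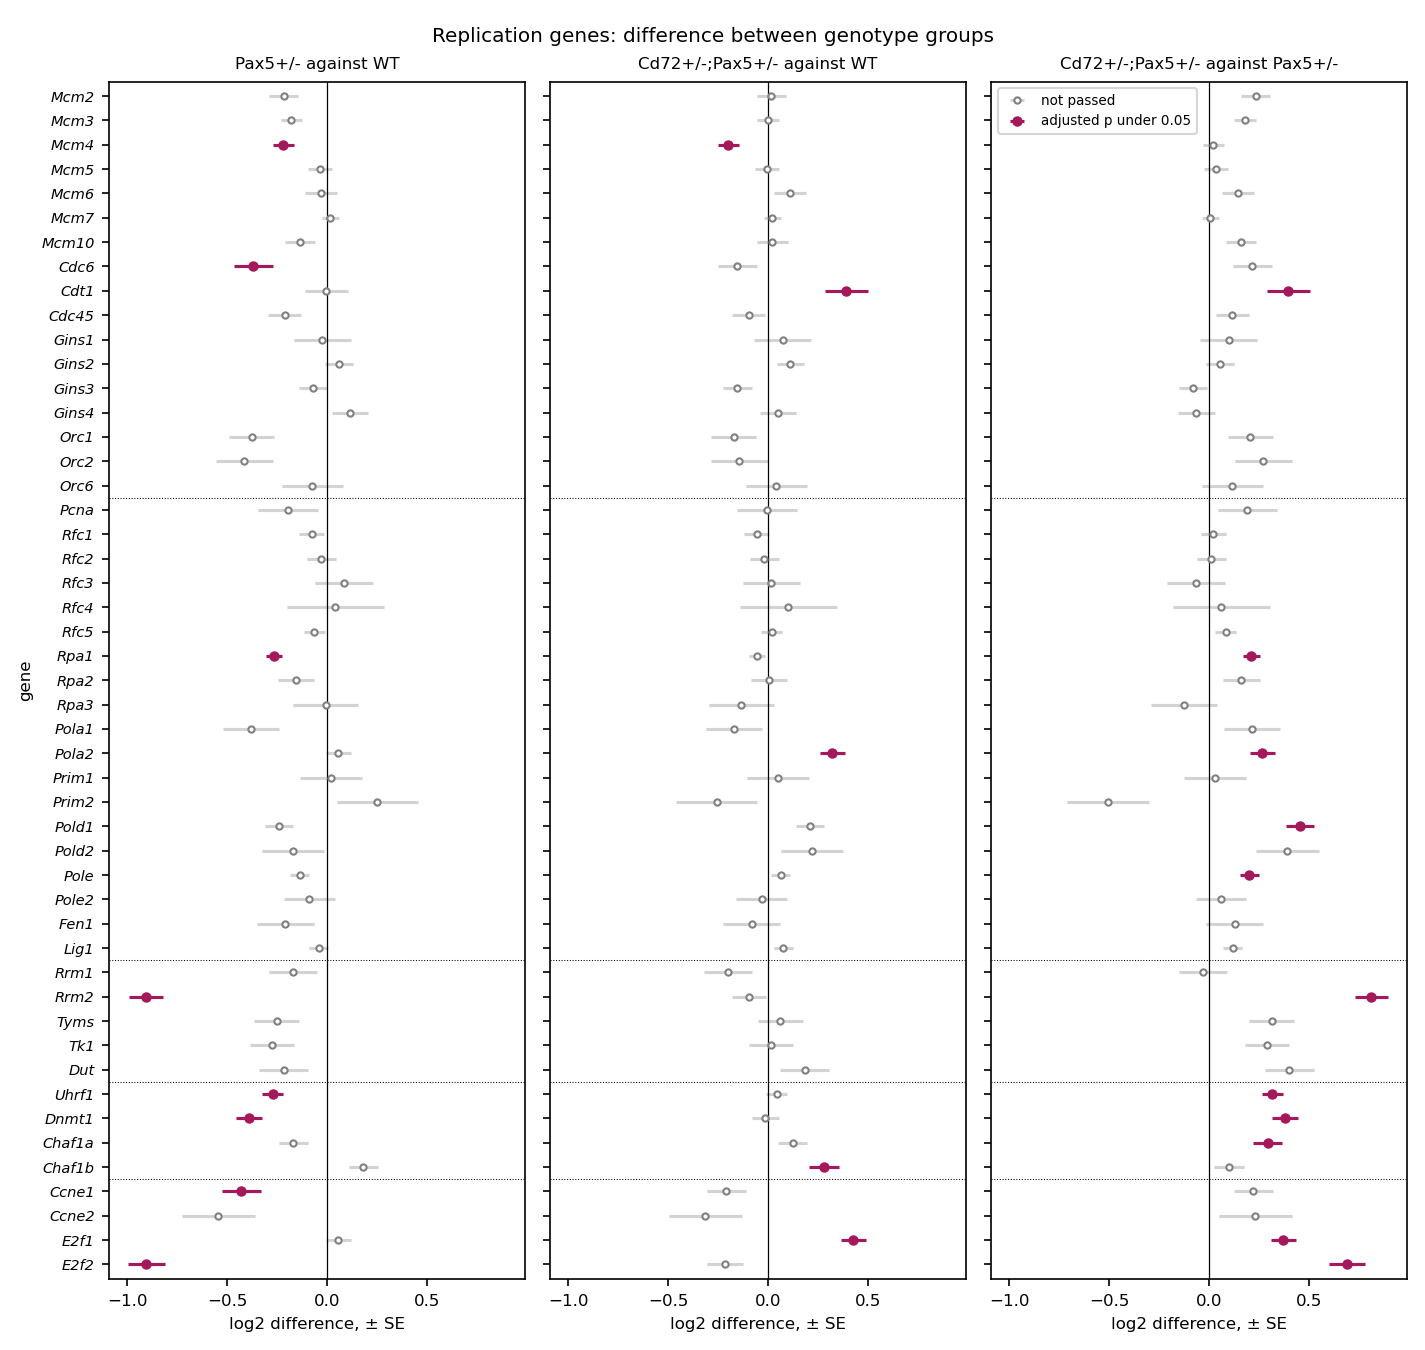
Log2 difference of each replication gene in the 3 comparisons, with genes as rows in the order of their roles and bars of ± 1 SE from limma. Filled points passed at an adjusted p under 0.05: 8 members in Pax5+/- against WT, all to the left of 0, 5 in Cd72+/-;Pax5+/- against WT and 11 in Cd72+/-;Pax5+/- against Pax5+/-, all to the right.

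Counted by overlap, 10 of the 49 members had all Pax5+/- arrays below all WT arrays, against 4.87% of all clusters, and none had them all above (5.84%). These were the 8 that fell, Mcm3 and Orc1. Between Cd72+/-;Pax5+/- and WT the counts were 3 below (7.23% of all clusters) and 6 above (7.61%), near the background. Between Cd72+/-;Pax5+/- and Pax5+/- they were 16 above (9.59%) and none below (8.91%), the 11 named and Mcm2, Mcm3, Pold2, Lig1 and Tk1. The calls that no single array ended were 5 of 8 in Pax5+/- against WT (Rpa1, Rrm2, Uhrf1, Dnmt1 and E2f2), 2 of 5 in Cd72+/-;Pax5+/- against WT (Pola2 and E2f1) and 7 of 11 in Cd72+/-;Pax5+/- against Pax5+/- (Rpa1, Pold1, Rrm2, Uhrf1, Dnmt1, E2f1 and E2f2). With the closest pairs of arrays averaged, which leaves 2 units a group, Rrm2 was the 1 member still called in Pax5+/- against WT (adjusted p = 0.0456) and in Cd72+/-;Pax5+/- against Pax5+/- (0.0493), and no member was called in Cd72+/-;Pax5+/- against WT.

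A wider list of 56 other replication genes, 55 of them measured, was set beside the members. In Pax5+/- cells 5 were lower than in WT (9.09%, against 3.20% of all clusters) and 1 was higher (1.82%, against 4.28%), with a median of -0.1425. Those that fell were Mtbp (-0.38, SE 0.0805, adjusted p = 0.0107), which helps fire origins, Clspn (-0.24, SE 0.0541, 0.0142), a checkpoint adaptor at the fork, Atad5 (-0.23, SE 0.0626, 0.0459), which unloads the clamp, and the repressive E2F factors E2f7 (-0.27, SE 0.0566, 0.0102) and E2f8 (-0.305, SE 0.0652, 0.0109). The gene that rose, Samhd1, encodes an enzyme that breaks down deoxynucleotides. It read 8.23, 7.71, 8.22 and 7.96 in WT, 9.18, 9.49, 9.34 and 9.43 in Pax5+/-, and 8.02, 7.99, 8.14 and 8.02 in Cd72+/-;Pax5+/- replicates. Pax5+/- arrays were above all others. Samhd1 rose by 1.33 (SE 0.107, 2.51-fold, adjusted p = 4.14e-06) and was 1.32 lower in Cd72+/-;Pax5+/- than in Pax5+/- cells (SE 0.107, adjusted p = 4.33e-06). Rrm2, which makes deoxynucleotides, was thus low in the same arrays in which Samhd1 was high.

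In Cd72+/-;Pax5+/- cells against WT none of the 55 fell by limma's adjusted p. At an unadjusted limma p under 0.05, 4 were lower, against 2267 of the 23410 clusters. Donson (0.315, SE 0.0855, adjusted p = 0.0417) and Timeless (0.19, SE 0.0535, 0.0497), both fork proteins, rose. Over all clusters 3.66% fell and 4.12% rose, so the rises (3.64% of the 55) were near the background. Against Pax5+/- cells 9 were higher (16.4%, against 4.44% of all clusters) and 1, Samhd1, was lower (1.82%, against 5.35%), with a median of 0.13. The 6 calls with the smallest adjusted p there were Samhd1, E2f7 (0.30, SE 0.0566, 0.00385), E2f8 (0.345, SE 0.0652, 0.00412), Donson (0.45, SE 0.0855, 0.00429), Clspn (0.24, SE 0.0541, 0.0136) and Rbl1 (0.29, SE 0.0694, 0.0175), a pocket protein that binds E2F factors. Genes of the following cell-cycle phases were counted too. Of 19 measured G2 and mitosis genes, Top2a (-0.28, SE 0.0605, adjusted p = 0.0124) and Bub1b (-0.23, SE 0.0602, 0.0334) fell in Pax5+/- cells (10.5%, against 3.20% of all clusters). None passed in Cd72+/-;Pax5+/- against WT. There 4 were lower and 2 higher at an unadjusted limma p under 0.05, against 2267 and 2345 of the 23410 clusters. Bub1b (0.31, SE 0.0602, 0.00495), Aurkb, Birc5 and Ube2c were higher in Cd72+/-;Pax5+/- than in Pax5+/- cells (21.1%, against 4.44% of all clusters).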

How the data were processed

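RNA of 12 samples was hybridised to Affymetrix Mouse Gene ST 1.0 arrays, and the authors deposited log2 signals per transcript cluster. The submitters' processing notes name the Transcriptome Analysis Console 4.0.3. The normalization is not given in the sources used here. Signals ranged from 3.67 to 14.73 and array medians from 6.91 to 7.005. Symbols came from the platform annotation: 21789 clusters carry 1 symbol, 1621 several (not used for naming) and 5534 none. A mean per group was fitted on all 12 arrays with limma 3.58.1 in R 4.3.3, without another normalization or filter (9 residual and 3.28 prior degrees of freedom), and p-values were adjusted over 23410 clusters. SE is that of the moderated fit. The number of arrays limits the precision. The pipeline was run on simulated data with independent noise on each array. That simulation held no close pairs of arrays, so it does not bear on calls that depend on the pairs.

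The members, lists, motifs and alternatives were chosen with earlier results of these data known. Values by array are given for every member called in any comparison. Up to 4 further members of each class with the largest differences are given by value. Of the wider replication list, up to 6 calls per comparison are named, and of G2 and mitosis genes up to 3, further names being chosen after their values were seen. Promoters came from RefSeq's table for GRCm38.p6. Alternatives were a filter on dim clusters (all 49 members passed), quantile normalization, a common median for all arrays, inclusion of clusters without a symbol, a trend and robust prior, only the compared groups, array weights, the closest pairs of arrays averaged or as a random block, the mean of a gene's clusters, and each array left out. Omission of WT and Pax5+/- replicates 1 and 3, or 2 and 4, was added after the data were seen. Figures used Python 3.11.15, pandas 2.3.3 and matplotlib 3.10.9.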

Additional observations from a re-analysis of the deposited data

Results flagged for a closer look

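Pola2 in Pax5+/- replicate 4, at a log2 signal of 10.02, lay far from the other 3 arrays of its group, which read 10.09 to 10.10. The gap to the nearest array was above Dixon's 95% limit for 4 values. This was 1 of 63 groups of 4 arrays checked, and chance flags about 1 in 20 groups.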

How the results depend on the processing

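No member's called difference changed sign in any of the 24 settings run. With the closest pairs averaged, which leaves 6 units in all, the members lower in Pax5+/- against WT went from 8 to 1, those lower and higher in Cd72+/-;Pax5+/- against WT from 1 and 4 to 0 and 0, and those higher in Cd72+/-;Pax5+/- against Pax5+/- from 11 to 1. With the pairs as a random block (consensus correlation 0.427) these counts were 5, 0, 2 and 7. With only the compared groups fitted, 5 members were lower in Pax5+/- and 2 in Cd72+/-;Pax5+/- against WT, and with array weights 13 were lower in Pax5+/-. In Cd72+/-;Pax5+/- against WT, 0 were lower with a trend and robust prior, and 0 lower and 2 higher with arrays shifted to a common median. The causes were not tested. Leaving out 1 array at a time, the members lower in Pax5+/- ranged from 5 (without WT replicate 4) to 11 (without Pax5+/- replicate 1), those lower and higher in Cd72+/-;Pax5+/- against WT from 0 to 1 and from 2 to 4, and those higher in Cd72+/-;Pax5+/- against Pax5+/- from 8 to 12. Omission of a pair from both groups was chosen after the data were seen and leaves 1 of the closest pairs in WT and in Pax5+/-. The cause of the change in counts was not tested. Shares of all clusters called are not given for the settings of this section, so its counts cannot be read as particular to the members. Without replicates 1 and 3 of both groups, 25 members were lower in Pax5+/- and 4 in Cd72+/-;Pax5+/- against WT, 29 were higher in Cd72+/-;Pax5+/- against Pax5+/-, and the median of that difference was 0.2775. Without replicates 2 and 4, 6 members were lower and 1 higher in Pax5+/- against WT with a median of -0.03, 7 were lower and 7 higher in Cd72+/-;Pax5+/- against WT, and 3 were lower and 13 higher in Cd72+/-;Pax5+/- against Pax5+/-, all 11 of the original calls among the 13, with a median of 0.0125. No paired analysis was possible because the numbers in the titles run from 1 to 12 without repeating. All members lay above the median of cluster means, the lowest, Orc1, at 7.61. Orc1 read down to 7.15 in Pax5+/- arrays, and Cd3e, a T-cell marker, read up to 7.15 in WT arrays. The part of dim signal in the members' values was not tested.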
